A study of Mus musculus with 6 samples.

Results

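Oxidative phosphorylation was followed complex by complex in stem and progenitor cells of the bone marrow through 39 nuclear genes, chosen by name from the 34650 gene names on the array. They comprise 15 subunits assigned to complex I, 4 of complex II, 5 of complex III, 7 of complex IV and 7 of complex V, together with cytochrome c (Cycs). The cells came from Spred1 knockout mice (KO, 3 arrays) and from wild-type mice (WT, 3 arrays), and the strain of both is given as C57BL/6. The product of Spred1 restrains the Ras-ERK cascade. Bone marrow cells of both genotypes were sorted for c-Kit and Sca-1 and against CD48 and lineage markers, which keeps haematopoietic stem cells and their earliest progeny. Neither the mice's age nor the part of Spred1 that was deleted is given in the sources used here. The labels do not say that the samples came from separate animals, so the p-values rest on a spread between samples that may be technical.

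Oxidative phosphorylation makes ATP in the inner mitochondrial membrane. Complex I takes electrons from NADH and complex II from succinate, complex III passes them by way of cytochrome c to complex IV, which reduces oxygen, and complex V (ATP synthase) uses the proton gradient that builds up. Most subunits are encoded in the nucleus and a few in the mitochondrial genome. Quiescent haematopoietic stem cells are known for relying less on this pathway than their dividing progeny.

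RNA of each sample was labelled with Cy3 and read on a separate 1-colour array. The scale is the log2 signal relative to each array's 75th percentile, and 0 marks a signal equal to it. These are levels of single probes and are not compared between genes. A feature was tested if all 3 arrays of KO, of WT or of both read it as well above background, a filter that 19609 features passed. All 39 genes passed, and each was well above background on all 6 arrays. The correlation between arrays lay between 0.988 and 0.995 across features, which are not independent replicates. Of 3 Spred1 probes, the one at chromosome 2, 116998491 to 116998550 (mouse build mm9), stood at 0.23, 0.0068 and -0.15 on the KO arrays and at -2.20, -2.66 and -2.38 on the WT arrays (KO minus WT 2.44 ± 0.16 SE, limma adjusted p = 0.013 over 27806 probes). The probe at 117005906 to 117005965 was lower in KO by a difference of -0.98 ± 0.095, which missed the threshold (limma adjusted p = 0.054), and the remaining probe differed by -0.14 ± 0.10. The arrays of the genotypes did not overlap for the first 2 probes but did for the last, and whether any lies in the deleted part is not known here. Among markers of the gate, Kit lay between 4.94 and 5.32 and Ly6a, the gene of Sca-1, between 4.22 and 4.75 over the 6 arrays. Cd48 lay between -0.67 and 0.20 and was well above background on all 6 arrays. None of the 8 gate genes passed the test, 5 having a higher and 3 a lower mean in KO. Flt3, a receptor of multipotent progenitors, differed by 0.42 ± 0.13 (unadjusted p 0.015, limma adjusted p = 0.370) and Procr, a marker of stem cells, by -0.17 ± 0.085 (limma adjusted p = 0.454), both without overlap. Slamf1, another stem cell marker, differed by -0.56 ± 0.22 (unadjusted p 0.039, limma adjusted p = 0.400) with overlapping arrays. These 3 were picked with their values in view, and their part in the differences of the 39 genes was not tested. Over all features, 10.0% had no overlap and were lower in KO, and 9.53% had none and were higher.

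In each of the 5 complexes most genes had a slightly lower mean in KO, and no single gene passed the test. The mean signal was lower in KO than in WT for 37 of the 39 genes, against 51.2% of all features tested. The median difference over the 39 genes was -0.087, which is 94.2% of the WT signal, against -0.006 over all features. None of the 39 passed limma's test at an adjusted p under 0.05, against 0.0204% of all features (4 of 19609). The smallest adjusted p was 0.384, for Cycs. At an unadjusted p under 0.05 only Cycs was lower, against 5.12% of features, and none was higher, against 7.06%. In 5 genes (Ndufs1, Sdha, Cycs, Atp5a1 and Atp5b) every KO array lay below every WT array, against 10.0% of all features. No gene had every KO array above every WT array, against 9.53% of features. The count of 5 among 39 is thus near the background share. The arrays measure RNA pooled over the sorted cells, so a smaller share of a cell type and less RNA per cell cannot be told apart.

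**Figure D1:**
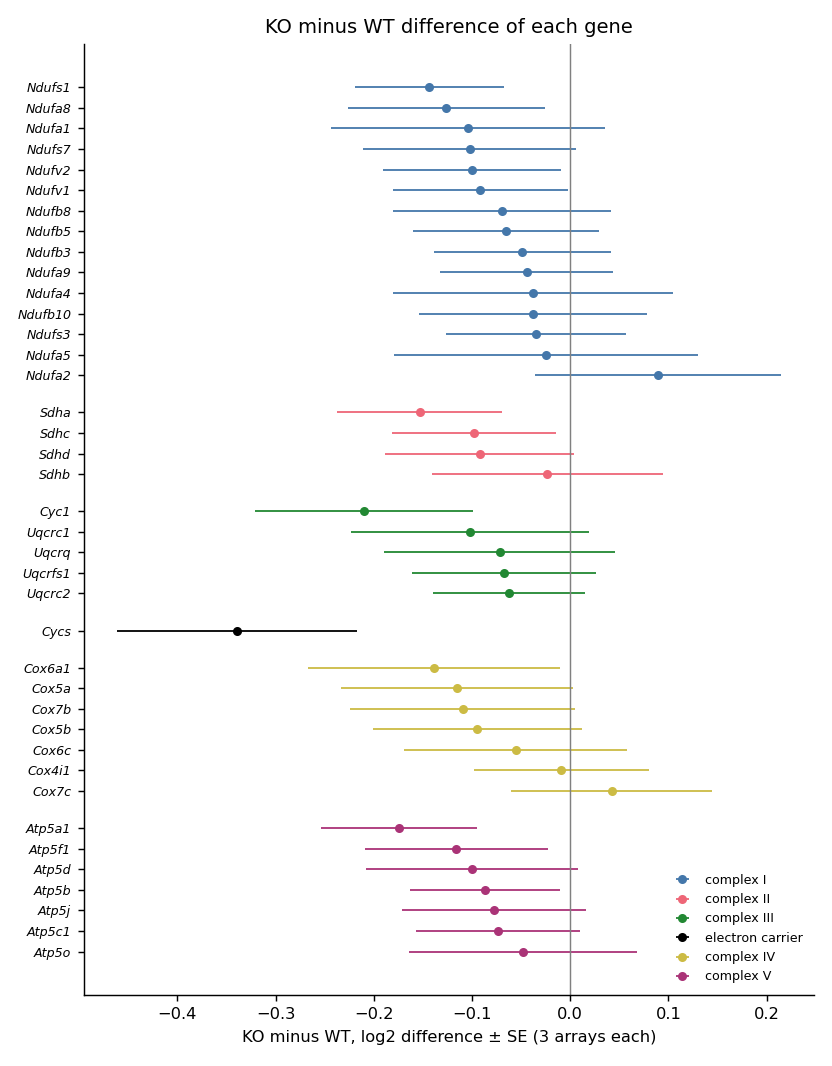
KO minus WT log2 difference of each of the 39 genes (horizontal axis, point) with the standard error of the limma fit (bar, 3 arrays per genotype), grouped by complex and sorted within it. All points but those of Ndufa2 and Cox7c lie below 0, and Cycs lies lowest at -0.34.

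The 39 genes also varied between arrays of 1 genotype. After each gene was centred on its mean over the 6 arrays, the median of the 39 genes was 0.055, -0.10 and -0.076 on the KO arrays of replicates 1, 2 and 3. It was -0.00055, -0.033 and 0.15 on the WT arrays of the same numbers. The genotypes overlapped: KO replicate 1 lay above WT replicates 1 and 2. KO replicate 2 was the lowest array for 23 of the 39 genes, against 15.4% of all features. WT replicate 3 was the highest array for 33 of the 39 genes, against 21.1% of all features. Without WT replicate 3, the median difference was -0.023 and 24 of the 39 genes had a lower mean in KO, against 48.8% of features.

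**Figure D2:**
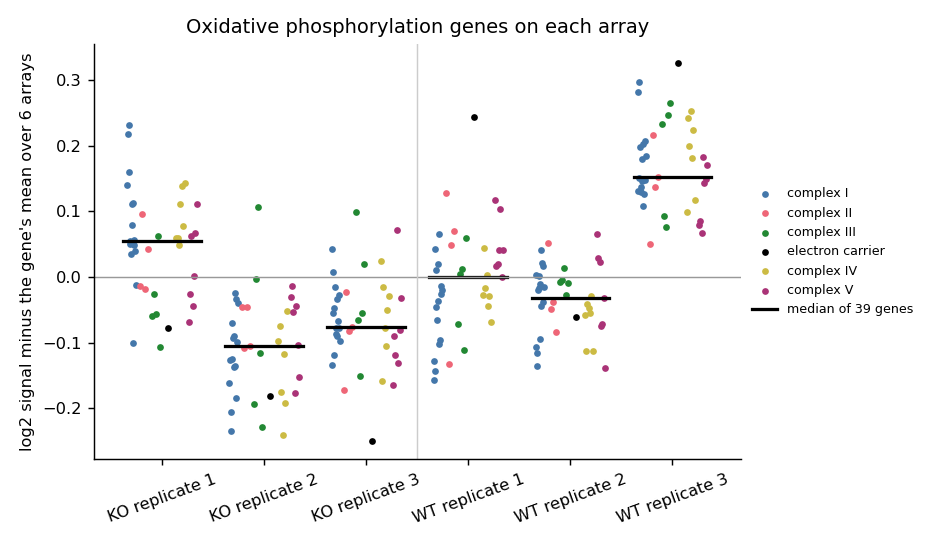
Log2 signal of each of the 39 genes on each array minus the gene's mean over the 6 arrays (vertical axis), with KO arrays on the left and WT arrays on the right. Points are genes coloured by complex and black lines are medians, which lie between -0.10 and 0.055 on the KO arrays and between -0.033 and 0.15 on the WT arrays.

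The 6 arrays came from 2 slides, each scanned on its own. Slide 1 held replicates 1 and 2 of both genotypes and slide 2 held replicate 3 of both. Within slide 1 the median difference of the 39 genes was -0.009, and 21 of them had a lower mean in KO, against 49.2% of features. Within slide 2, a single KO array set against a single WT array, the median was -0.23 and all 39 were lower in KO, against 53.0% of features. The pooled shift was therefore largely absent from slide 1. On slide 2 the WT array stood 0.20 (median over the genes) above the mean of the other WT arrays, against 0.035 over all features. The KO array differed by -0.050 from the mean of the other KO arrays, against 0.0045 over all features. Slide cannot be separated from replicate number, and its part in the result was not tested beyond these values.

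The complexes differed little from one another in the pooled comparison. The median KO minus WT difference was -0.065 for complex I, -0.095 for complex II, -0.072 for complex III, -0.095 for complex IV and -0.087 for complex V. For comparison, the within-genotype SD of the array medians was 0.098 for complex I, 0.076 for complex II, 0.098 for complex III, 0.12 for complex IV and 0.070 for complex V. The shift was thus smaller than that spread for complexes I, III and IV, and slightly larger for complexes II and V. Within slide 1 the medians of complexes I and IV lay on the other side of 0, at 0.022 and 0.024, while those of complexes II, III and V were -0.031, -0.015 and -0.037. Within slide 2 they ran from -0.27 for complex IV to -0.20 for complex V. No difference between complexes was tested.

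**Figure D3:**
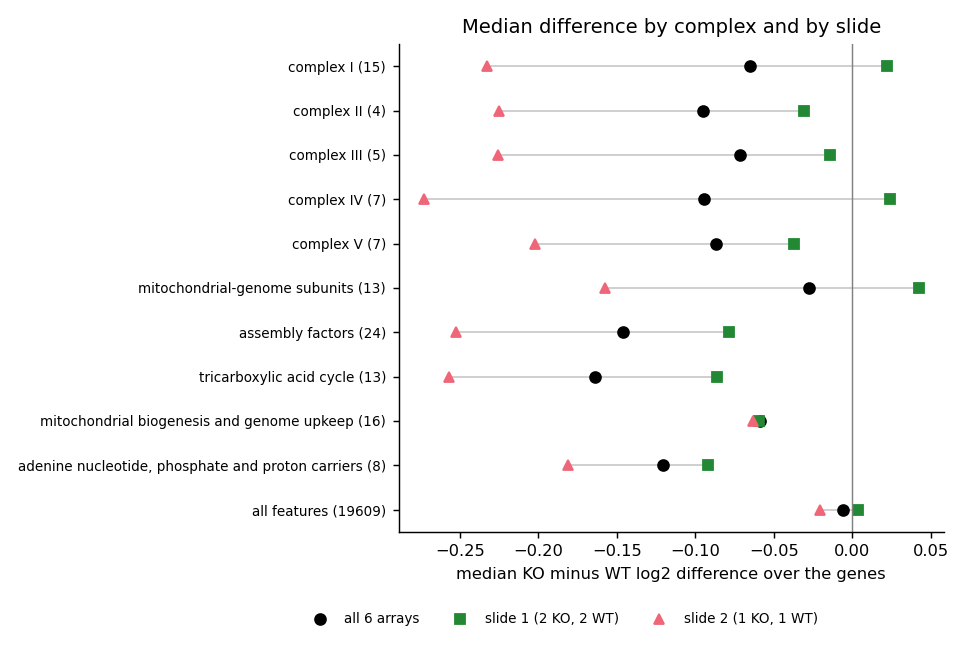
Median KO minus WT log2 difference (horizontal axis) over the measured genes of each complex and of related gene lists, with the number of genes in brackets, over all 6 arrays (circles), within slide 1 (squares, 2 KO and 2 WT arrays) and within slide 2 (triangles, 1 KO and 1 WT array). Slide 2 lies at or below slide 1 in each row, and the medians of complexes I and IV, the mitochondrial-genome subunits and all features are above 0 on slide 1.

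Many genes of the pathway are known targets of the transcription factors NRF1, GABP (an ETS factor) and YY1, so the promoters of the 39 genes were searched for these factors' motifs. RefSeq promoters on build GRCm38.p6, from 250 bases before to 50 after the annotated start, were found for 30 of the 39 genes. Those of Ndufa2, Ndufs1, Sdhc, Uqcrc2, Uqcrq, Cyc1, Cox4i1, Cox6c and Atp5a1 were not analysed here. On either strand, the NRF1 motif (the capitals of the Sdha promoter below, with any base at the sixth position) occurred in 8 of the 30 (26.7%), against 5.19% of 27025 genes and 7.17% of 17492 coding genes. CCGGAAG (ETS) occurred in 5 (16.7%), against 9.93% of all genes and 12.9% of coding genes. The YY1 motif (the first capitals of the Atp5j promoter below) occurred in 3 (10.0%), against 0.995% and 1.41%. At least 1 of these occurred in 13 of the 30 (43.3%), against 14.6% of all genes and 19.5% of coding genes. By complex, the NRF1 letters occurred in 2 genes of complex I (Ndufa5 and Ndufa8), 2 of complex II (Sdha and Sdhd), 1 of complex III (Uqcrc1), 1 of complex IV (Cox6a1) and 2 of complex V (Atp5c1 and Atp5o). A match is a run of letters and not evidence of binding.

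The promoters below are shown because Cycs had the lowest difference of the 39 genes. The other 3 had the lowest differences among the genes given array by array that hold any of the 3 motifs. They belong to complexes II, IV and V. Sdhb and Atp5o also hold a motif but had higher differences, and their promoters are not shown. Each is the 250 bases before the annotated start, on the minus strand of GRCm38.p6, 5′ to 3′. Capitals mark the motifs. Sdha (chr13:74350241-74350490) holds 3 NRF1 matches, beginning at -98, -55 and -10 when bases are counted back from the start. Cox6a1 (chr5:115348959-115349208) holds NRF1 matches at -162 and -117, the first of which reads the same on both strands, and the ETS letters on the opposite strand at -16. Atp5j (chr16:84834977-84835226, the second of its 2 promoters) holds the YY1 letters at -88 and the ETS letters at -61. Cycs (chr6:50566570-50566819) holds none of the 3 motifs. Its capitals at -60 mark GCATGCGC, a shorter part of some NRF1 matches that was searched after the Cycs sequence had been read, and which occurred in 5 of the 30 promoters (16.7%), against 3.05% of all genes.
Cycs: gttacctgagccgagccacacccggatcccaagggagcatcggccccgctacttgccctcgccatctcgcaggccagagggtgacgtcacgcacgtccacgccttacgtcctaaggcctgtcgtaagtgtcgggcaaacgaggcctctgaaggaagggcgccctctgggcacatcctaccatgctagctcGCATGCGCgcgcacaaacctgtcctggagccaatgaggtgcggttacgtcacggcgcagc
Sdha: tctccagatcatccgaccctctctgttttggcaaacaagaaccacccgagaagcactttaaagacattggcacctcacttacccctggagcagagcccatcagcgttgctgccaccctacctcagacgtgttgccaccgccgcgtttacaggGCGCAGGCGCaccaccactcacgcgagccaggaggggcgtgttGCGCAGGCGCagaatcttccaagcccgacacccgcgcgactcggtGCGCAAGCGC
Cox6a1: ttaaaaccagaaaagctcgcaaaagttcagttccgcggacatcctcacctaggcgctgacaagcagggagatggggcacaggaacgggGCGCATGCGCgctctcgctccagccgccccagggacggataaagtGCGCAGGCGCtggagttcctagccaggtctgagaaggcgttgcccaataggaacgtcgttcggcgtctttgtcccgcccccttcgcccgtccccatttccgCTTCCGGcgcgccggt
Atp5j: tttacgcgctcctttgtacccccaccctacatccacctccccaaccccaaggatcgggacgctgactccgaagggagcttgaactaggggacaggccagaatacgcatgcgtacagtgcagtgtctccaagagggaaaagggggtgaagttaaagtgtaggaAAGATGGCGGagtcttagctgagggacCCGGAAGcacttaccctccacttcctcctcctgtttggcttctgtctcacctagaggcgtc

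Cytochrome c, the soluble carrier between complexes III and IV, had the lowest difference. Cycs stood at 3.71, 3.61 and 3.54 on the KO arrays, against 4.04, 3.73 and 4.12 on the WT arrays. All KO arrays lay below all WT arrays, although KO replicate 1 and WT replicate 2 nearly met. The difference was -0.34 ± 0.12 (SE), 79.1% of the WT signal, with an unadjusted p of 0.029 and an adjusted p of 0.384 by limma. The exact two-sided permutation p was 0.1, the smallest that 3 arrays against 3 allow. The probe lies at chr6:50515092-50515151 (mm9). A second Cycs probe, at chr6:50514522-50514581, differed by -0.39 ± 0.13 (limma adjusted p = 0.400 over all probes), and no array read the remaining probe as well above background. Within slide 1 the Cycs difference was -0.22 and within slide 2 it was -0.58. Without WT replicate 3 it was -0.26.

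**Figure D4:**
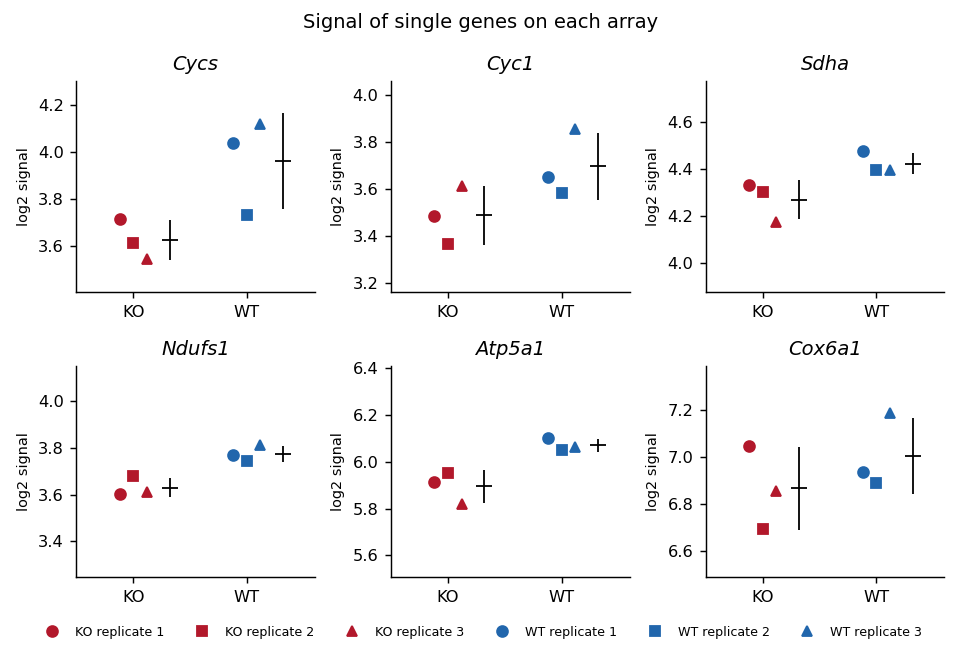
Log2 signal (vertical axis, equal span in each panel) of 6 genes on each KO array (left) and WT array (right); symbols mark the replicate number and black bars the mean ± SD of 3 arrays. Cycs, Sdha, Ndufs1 and Atp5a1 have all KO points below all WT points, while Cyc1 and Cox6a1 overlap.

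Complex I genes had differences between -0.14 and 0.089, and 14 of 15 were lower in KO. Ndufs1, the largest iron-sulphur subunit of the arm that accepts electrons from NADH, had the lowest. It stood at 3.60, 3.68 and 3.61 in KO, against 3.77, 3.74 and 3.81 in WT, without overlap. The difference of -0.14 ± 0.076 had a limma adjusted p of 0.470 and an exact permutation p of 0.1. It was -0.12 within slide 1 and -0.20 within slide 2, so the sign was the same on both. Ndufa2, a small accessory subunit, lay at the other end, with 5.43, 5.09 and 5.26 in KO, against 5.06, 5.11 and 5.35 in WT. Its arrays overlapped, and the difference of 0.089 ± 0.13 (limma adjusted p = 0.764) took opposite signs on the slides, 0.18 on slide 1 and -0.087 on slide 2. Among the other catalytic subunits, Ndufv1, which binds NADH, differed by -0.091 and Ndufv2, its iron-sulphur partner, by -0.10. Ndufs7, which carries the cluster next to ubiquinone, differed by -0.10, and Ndufs3 by -0.035. Of the remaining accessory subunits, Ndufa8 differed by -0.13 and Ndufa1 by -0.10, and the range ended with Ndufa5 at -0.025. Ndufa4, which work in human cells places in complex IV, differed by -0.038.

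Complex II oxidises succinate and is also an enzyme of the tricarboxylic acid cycle. All 4 of its genes had lower means in KO. Sdha, the flavoprotein that holds the catalytic site, stood at 4.33, 4.30 and 4.18 in KO, against 4.48, 4.40 and 4.40 in WT, and every KO array was below every WT array. Its difference was -0.15 ± 0.084 (limma adjusted p = 0.479, exact permutation p = 0.1). It was -0.12 within slide 1 and -0.22 within slide 2. Sdhb, the iron-sulphur subunit, had 4.80, 4.59 and 4.68 in KO, against 4.57, 4.65 and 4.92 in WT. These ranges overlapped widely, and the difference of -0.023 ± 0.12 turned to 0.084 within slide 1 and to 0.010 after quantile normalization. The membrane anchors Sdhc and Sdhd differed by -0.098 and -0.092.

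All 5 genes of complex III had lower means in KO. Cyc1 encodes cytochrome c1, the subunit that hands electrons to cytochrome c, and had the second lowest difference of the 39 genes. Its signals were 3.49, 3.36 and 3.61 in KO, against 3.65, 3.58 and 3.86 in WT. KO replicate 3 lay above WT replicate 2, so the genotypes overlapped. The difference of -0.21 ± 0.11 (limma adjusted p = 0.469) was nearly as large within slide 1, at -0.19, as within slide 2, at -0.24. Uqcrc2, a core subunit without a redox centre, was nearest to 0 in this complex, with 4.35, 4.37 and 4.31 in KO, against 4.38, 4.37 and 4.47 in WT. Its probe was spotted 10 times on each array, and the difference was -0.063 ± 0.077. The other core subunit, Uqcrc1, differed by -0.10, the Rieske iron-sulphur protein Uqcrfs1 by -0.067 and the small subunit Uqcrq by -0.072.

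In complex IV, 6 of 7 genes had lower means in KO and none was free of overlap. The 7 are nuclear subunits that surround the catalytic core, which the mitochondrial genome encodes. Cox6a1 was at 7.05, 6.70 and 6.86 in KO, against 6.94, 6.89 and 7.19 in WT. KO replicate 1 exceeded 2 of the WT arrays, and the difference was -0.14 ± 0.13 (limma adjusted p = 0.655). Cox7c was at 4.31, 4.11 and 4.14 in KO, against 4.10, 4.05 and 4.28 in WT. The groups overlapped, and the difference of 0.042 ± 0.10 took both signs when single arrays were left out, from -0.019 to 0.11. Between them lay Cox5a at -0.12, Cox7b at -0.11, Cox5b at -0.095, Cox6c at -0.056 and Cox4i1, the subunit 4 isoform found in most tissues, at -0.0092.

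All 7 complex V genes had lower means in KO, and 6 of them within slide 1 too. Atp5a1 and Atp5b encode the alpha and beta subunits that form the catalytic head of ATP synthase. Atp5a1 stood at 5.91, 5.95 and 5.82 in KO, against 6.10, 6.05 and 6.06 in WT. The KO arrays lay below the WT arrays throughout, by a difference of -0.17 ± 0.079 (limma adjusted p = 0.430, exact permutation p = 0.1). Within slide 1 it was -0.14 and within slide 2 -0.24. Atp5b stood at 6.76, 6.77 and 6.70 in KO, against 6.80, 6.82 and 6.87 in WT. Here too the arrays did not overlap, although the difference was only -0.087 ± 0.076 (limma adjusted p = 0.637, exact permutation p = 0.1).

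The other complex V genes encode the central stalk (Atp5c1 and Atp5d) and the peripheral stalk (Atp5f1, Atp5j and Atp5o). Atp5o, which joins the stalk to the head, had 3.64, 3.38 and 3.50 in KO, against 3.57, 3.39 and 3.70 in WT. Both groups spanned nearly the same range, and the difference was -0.048 ± 0.12 over all arrays and 0.029 within slide 1. Atp5j had 4.55, 4.38 and 4.40 in KO, against 4.48, 4.45 and 4.63 in WT, a difference of -0.078 ± 0.094. Its second probe was much dimmer, at -2.94, -3.26 and -3.24 in KO, against -3.40, -3.96 and -3.11 in WT, and differed by 0.34 ± 0.22 in the other direction. Both Atp5j probes overlapped between the genotypes. Atp5f1, whose current symbol is Atp5pb, differed by -0.12, Atp5d by -0.10 and Atp5c1 by -0.074.

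The remaining nuclear subunits of complexes I, III, IV and V also mostly had lower means in KO. Of 22 further complex I genes, 19 had a lower mean in KO, as had 3 of 4 further genes of complex III, 3 of 4 of complex IV and 6 of 9 of complex V. None of these 39 further genes passed the test, against 0.0204% of all features. None was below an unadjusted p of 0.05, against 5.12% of features lower and 7.06% higher in KO. In none did the genotypes not overlap, against 10.0% of features lower and 9.53% higher in KO. Their medians were -0.054, -0.014, -0.033 and -0.062 in that order. Those of smallest p were Ndufa10 (-0.19 ± 0.097) and Ndufb6 (-0.16 ± 0.10) in complex I, Uqcrb (-0.11 ± 0.10) and Uqcrh (0.028 ± 0.099) in complex III, Cox6b1 (-0.12 ± 0.12) and Cox8a (-0.044 ± 0.11) in complex IV, and Atp5g3 (-0.13 ± 0.086) and Atp5h (-0.11 ± 0.098) in complex V. Over all 78 nuclear subunits, 68 had a lower mean in KO, against 51.2% of features. Within slide 1, 34 did so, against 49.2% of features, and the median difference was 0.016. Within slide 2, 76 did so, against 53.0%. WT replicate 3 was the highest array for 65 of the 78, against 21.1% of features. Of 9 subunit isoforms restricted to certain tissues, 3 were well above background. Cox7a1, the isoform of heart and skeletal muscle, was the only one of these 3 without overlap, against 10.0% of features lower in KO. It differed by -0.31 ± 0.13 (limma adjusted p = 0.405).

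The 13 subunits encoded in the mitochondrial genome were split, with 7 lower and 6 higher in KO and a median of -0.028. The scanner files place the probe named ND3, 1 of the 6 that were higher (0.062), on chromosome 1 and not on the mitochondrial genome. None passed the test. ND6, a complex I subunit, stood at 1.58, 0.98 and 1.54 in KO, against 0.62, 0.99 and 1.26 in WT, a difference of 0.41 ± 0.22 (limma adjusted p = 0.477). COX2, a catalytic subunit of complex IV, differed by 0.17 ± 0.095. COX1, which was named after its values had been seen, was the only one with every KO array above every WT array, against 9.53% of features. It differed by 0.093 ± 0.081. Within slide 1, 1 of the 13 had a lower mean in KO (median 0.042), against 9 of 13 within slide 2 (median -0.16).

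Assembly factors of the complexes were lower in KO for 22 of 24 measured genes, against 51.2% of all features, with a median of -0.15. None passed the test, 3 had an unadjusted p under 0.05, and 7 had no overlap between genotypes, against 5.12% and 10.0% of all features. Those of smallest p were Coa5, a complex IV assembly factor, at -0.40 ± 0.14 (limma adjusted p = 0.379), and Ttc19, which acts on complex III, at -0.22 ± 0.090 (limma adjusted p = 0.409). The third was Sdhaf2, which attaches the flavin to Sdha, at -0.25 ± 0.10. The median was -0.079 within slide 1 and -0.25 within slide 2.

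Enzymes of the tricarboxylic acid cycle, which supply NADH to complex I, had lower means in KO for 12 of 13 genes. This compares with 51.2% of all features, and the median of the 13 was -0.16. None passed the test. An unadjusted p under 0.05 was reached by 4, against 5.12% of all features, and in 7 the KO arrays lay below all WT arrays, against 10.0%. Suclg1, a subunit of succinyl-CoA ligase, stood at 3.51, 3.46 and 3.59 in KO, against 3.88, 3.69 and 3.93 in WT (-0.32 ± 0.096, limma adjusted p = 0.370). Its partner Suclg2 differed by -0.37 ± 0.12 (limma adjusted p = 0.376), and Idh3a and Idh3b, subunits of NAD-dependent isocitrate dehydrogenase named after their values had been seen, by -0.34 ± 0.12 and -0.25 ± 0.094. Within slide 1, 12 of the 13 had lower means (median -0.086), against 21 of the 39 subunits, and within slide 2 the median was -0.26. The difference between the cycle's enzymes and the subunits was not tested.

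Regulators of mitochondrial biogenesis and genome upkeep had lower means in KO for 15 of 16 genes, against 51.2% of all features. Their median was -0.059 over all arrays, -0.060 within slide 1 and -0.063 within slide 2. Within slide 1, 13 of the 16 were lower in KO, against 49.2% of features. Within slide 2, 10 were, against 53.0%. Tfam, which packages and transcribes mitochondrial DNA, was the only one of the 16 without overlap, against 10.0% of features lower in KO. It differed by -0.17 ± 0.085 (limma adjusted p = 0.451). Polg, the mitochondrial DNA polymerase, differed by -0.13 ± 0.086. The genes of the factors whose motifs were searched differed by -0.017 (Nrf1), -0.094 (Gabpa) and -0.029 (Yy1). Of the carriers that bring ADP and phosphate to complex V or leak protons, and the outer membrane channels, all 8 measured of 10 had lower means in KO, against 51.2% of all features, and 4 were without overlap, against 10.0%. Their median was -0.12 over all arrays, -0.092 within slide 1 and -0.18 within slide 2. Slc25a5, an ADP/ATP carrier, differed by -0.28 ± 0.095 (limma adjusted p = 0.379) and Vdac3, an outer membrane channel, by -0.15 ± 0.084.

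Markers of other cell types varied between arrays. The 10 neutrophil markers, all measured, summed to between 335 and 439 times the 75th percentile signal on the KO arrays and to between 96.9 and 525 on the WT arrays, where WT replicate 1 was the lowest. The neutrophil sums on WT replicates 1, 2 and 3 were 96.9, 525 and 489. The medians of the 39 genes on the same arrays were -0.00055, -0.033 and 0.15. S100a9 and S100a8 made up most of these neutrophil sums. By gene, 9 of the 10 neutrophil markers had a higher mean in KO and all overlapped (median 0.37). WT replicate 1 was the lowest array for all 10. The neutrophil median was 0.74 within slide 1, which holds that array. Within slide 2 it was -0.30, and 8 of the 10 were lower in KO, against 53.0% of features. The 8 measured of 10 erythroid markers summed to between 79.4 and 84.9 in KO and to between 80.6 and 102 in WT. Car2 was the brightest of the 8 on every array, so the sums reflect the dimmer genes less. Hba-a1 stood at 4.49, 4.29 and 4.49 in KO, against 3.22, 5.37 and 5.18 in WT. WT replicate 1 was the lowest array for 4 of the 8 (Hba-a1, Hbb-b1, Alas2 and Ermap), against 4757 of 19609 features. By gene, 5 had a lower and 3 a higher mean in KO, with Car1 (0.45 ± 0.21) and Ermap (0.17 ± 0.079) without overlap. The 3 measured of 7 B cell markers summed to 8.69 to 10.5 in KO and 8.65 to 10.1 in WT, most of it from Cd79b. The 3 measured of 6 T and NK cell markers (not Cd3g, Cd3d or Ncr1) summed to 9.17 to 11.0 in KO and 9.07 to 10.6 in WT, with Cd3e (0.19 ± 0.11) without overlap. Nkg7 made up most of these T and NK sums. The monocyte sums were 9.28 to 12.1 in KO and 7.84 to 11.6 in WT. By gene, 6 of the 7 measured monocyte markers had a higher mean in KO (median 0.36), while Lyz2 differed by -0.36 ± 0.17. Emr1, listed also under its newer name Adgre1, was the only monocyte marker without overlap, at 0.76 ± 0.24 (unadjusted p 0.018, limma adjusted p = 0.376). The monocyte median was 0.69 within slide 1 and -0.32 within slide 2. All 6 megakaryocyte markers were measured and summed to 20.2 to 25.7 in KO and 18.3 to 23.4 in WT, with Gp1bb (0.33 ± 0.10) and Vwf (-0.31 ± 0.11) without overlap. Over all features, 10.0% had no overlap and were lower in KO, and 9.53% had none and were higher. None of the markers passed the test, and single markers were picked with their values in view. Their part in the differences of the 39 genes was not tested.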

How the data were processed

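The 39 genes and all gene and marker lists were chosen with earlier results of these data known. The authors deposited 1 scanner file per sample, made by version 10.7.3.1 of Agilent Feature Extraction according to its header. The deposited processed signal is an intensity on a linear scale, corrected within the array for background and trends, per the file headers. The authors' deposited value table is that intensity over an array-wide constant (304 to 368), linear and not centred on genes, with column medians between 0.0638 and 0.0750, and served as an alternative. All 6 arrays have the same direction because they are 1-colour. The RNA was labelled with a kit for low input, per the labels' protocols.

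Each array held 59305 spots other than controls, in 55681 probes. Spots marked as outliers (92 to 155 per array) were dropped, none was saturated, and spots of 1 probe were averaged. Log2 values were computed from the deposited intensity, minus the array's 75th percentile (signal 345 to 417). The brightest probe over all arrays stood for its gene name. The 39 genes had 51 probes, of which 50 passed the background filter, and 10 genes had several. Probe positions are on mm9, as in the scanner files, and the exon or UTR they lie in was not determined. Symbols were updated by accession. Some marker genes are not reported here.

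The genotypes were fitted in R 4.3.3 by lmFit and eBayes of limma 3.58.1, without covariates and with Benjamini-Hochberg adjustment over all features and a threshold of 0.05. The fit was tested on simulated data whose planted differences were all larger in size than that of Cycs, with noise independent between genes. The simulation therefore does not bear on shifts as small as those reported here. Single genes were also given an exact permutation test over the 20 splits of the arrays. Its p is 0.1 for every gene without overlap, so it adds nothing to the lack of overlap. Among the overlapping genes given array by array, the exact permutation p ran from 0.2 (Uqcrc2 and Cyc1) to 0.9 (Sdhb). Values on every array were given for genes without overlap or with an unadjusted p under 0.05, the lowest and highest difference of each complex, Cycs, and genes whose probes differ in sign by over 0.3, and for each further list the 2 genes of smallest p were named. The number of arrays limits the precision. Alternatives covered normalization, background, filter, probe choice, slide, replicate number and single arrays.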

Additional observations from a re-analysis of the deposited data

How the results depend on the processing

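None of the 39 genes passed the adjusted threshold under any setting run. The count at an unadjusted p under 0.05 was 2 after quantile normalization and after normexp background correction with quantile normalization, and 0 within slide 1. It ranged from 0 to 1 when single arrays were left out. It was 0 without KO replicate 2, KO replicate 3, WT replicate 1 or WT replicate 3. Genes with a lower mean in KO numbered 21 within slide 1 and from 24 (without WT replicate 3) to 38 when single arrays were left out, a count added after the data had been seen. Genes without overlap numbered 3 under normexp, and from 5 to 17 when single arrays were left out, with 17 without KO replicate 1 and 10 without WT replicate 2. Fewer arrays make separation easier.

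Leaving out single arrays moved the median difference between -0.13 and -0.023 for all 39 genes, -0.12 and 0.008 for complex I, -0.15 and -0.046 for complex II, -0.15 and -0.031 for complex III, -0.14 and -0.018 for complex IV and -0.13 and -0.059 for complex V. The highest value came without WT replicate 3 each time. Within slide 2 the medians were -0.23 (all 39), -0.23 (complex I), -0.23 (complex II), -0.23 (complex III), -0.27 (complex IV) and -0.20 (complex V). Among the 13 genes given array by array, the sign turned under some setting for Sdhb, Cox7c, Atp5o, Atp5j and Ndufa2, and for no other. Within slide 1 it also turned for genes outside these 13, such as Ndufa1 (0.052) and Cox6c (0.060). Sdhb gave 0.0070 under normexp, 0.010 under quantile normalization, 0.084 within slide 1 and -0.095 to 0.079 without single arrays. Cox7c ranged from -0.019 to 0.11 and Atp5o from -0.13 to 0.025 without single arrays, and Atp5o gave 0.029 within slide 1. Atp5j gave 0.13 as the mean of both probes. Within slide 2, Ndufa2 gave -0.087 and Cox7c -0.15. The cause was not tested. Without the filter on dim probes the median of all features was 0.071, while the 39 genes kept the same values.

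With the replicate number as a block, the median stayed at -0.087, none of the 39 genes passed and 1 had an unadjusted p under 0.05. The numbers were not taken to pair the samples, since deviations of same-numbered arrays correlated at -0.025, 0.15 and 0.071. Counting Ndufa4 with complex IV left the medians of complexes I and IV within the spread between arrays. Within slide 1 the medians of complexes I and IV were 0.022 and 0.024. All other settings kept the direction of the medians, apart from that of complex I without WT replicate 3. The size of the medians depended on the normalization. The median of the 39 genes was -0.055 after quantile normalization, where 34 genes had a lower mean in KO. Under normexp with quantile normalization it was -0.053, with 35 lower. The complex I median was then -0.033 and -0.035, and that of complex III -0.037 and -0.054. The 39 genes were well above background on every array.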
